A study of Mus musculus with 4 samples.

Results

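Plasmacytoid DC identity genes are a list of 10 genes that mark plasmacytoid dendritic cells (DCs) and the lymphoid-primed progenitors from which many of them arise: Siglech, Ccr9, Ly6d, Pacsin1, Cox6a2, Spib, Runx2, Bst2, Tcf4 and Dntt. Each was read from the probe set that carried its symbol alone in the array's annotation, and every measured gene of the list had 1 such probe set. Runx2 had none and was not analysed here, which left 9 of the 19938 genes of the series. All 9 reached the floor of 5.68, the median log2 value of single-gene probe sets, on 1 array or more, so all were among the 10239 genes tested.

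RNA was taken from dendritic cells grown from C57BL/6 bone marrow for 8 days with 200 ng/ml Flt3 ligand, the cytokine on which DC development depends. The groups were miR-142-/- (ko) CD8-equivalent DCs, miR-142+/+ (wt) CD8-equivalent DCs, ko CD4-equivalent DCs and wt CD4-equivalent DCs, with 1 Affymetrix array each. Both gates took CD11c-positive, B220-negative cells, and CD8-equivalent DCs were CD172-negative, CD24-positive and low in CD11b, while CD4-equivalent DCs were CD172-positive, CD24-low and CD11b-positive. The labels name no mice or cultures behind an array and give no age, sex or deleted interval. With 1 array a group, a difference between a pair of arrays could not be checked against replicates and carries no p-value. So few arrays limit the precision of each value.

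Plasmacytoid DCs are the DCs that release large amounts of type I interferon when their endosomal Toll-like receptors meet viral nucleic acid. Their identity rests on the E protein TCF4, also called E2-2, which binds E-box sequences and is held back by the inhibitor ID2 in conventional DCs, the antigen-presenting relatives that the CD8- and CD4-equivalent gates are meant to hold. In mice, plasmacytoid DCs carry B220, an isoform of CD45, so a B220-negative gate is meant to leave them out. Several of their genes are also found in DC progenitors and, at lower levels, in conventional DCs, and in bulk RNA fewer cells of a type and less RNA per cell cannot be told apart.

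The deleted microRNA gives rise to a pair of mature strands, shown because they define the genotype, with the seed (bases 2 to 8) in capitals. Sequences are RefSeq's for GRCm38.p6, from the plus strand of chromosome 11.
mmu-miR-142a-5p: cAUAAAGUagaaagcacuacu
mmu-miR-142a-3p: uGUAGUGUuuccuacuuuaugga
The seeds differ, and the Mir142 probe set read 4.79 in ko and 9.87 in wt CD8-equivalent DCs, and 4.92 in ko and 10.37 in wt CD4-equivalent DCs. Both ko arrays lay below the floor and both wt arrays well above it, which follows the genotype labels if the probe set lies in the deleted part, a point the labels do not settle. The mean difference was -5.26 ± 0.14 (SE) on the log2 scale (limma, adjusted p = 0.0029).

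Promoter sequence was looked up because TCF4 acts through E-boxes and most members shared their order across the arrays. The RefSeq promoter table of GRCm38.p6 held 7 of the 10 genes, and Ly6d, Cox6a2 and Tcf4 had no entry. The E-boxes CAGCTG and CAGGTG, the forms E proteins favour, were searched on both strands in the 300 bases of each entry. Of these 7 promoters 3 held CAGGTG and 0 held CAGCTG. Of all 32851 promoters in the table, 20.2% held CAGGTG, 16.3% CAGCTG and 32.9% at least 1 of them, and the 7 promoters were not compared with these by a test. The 250 bases before the start site are given for the genes with a match, 5′ to 3′ on the gene's strand. Capitals mark the E-box in Siglech (chr7:55767934-55768183, plus strand) and Ccr9 (chr9:123766961-123767210, plus strand).
Siglech: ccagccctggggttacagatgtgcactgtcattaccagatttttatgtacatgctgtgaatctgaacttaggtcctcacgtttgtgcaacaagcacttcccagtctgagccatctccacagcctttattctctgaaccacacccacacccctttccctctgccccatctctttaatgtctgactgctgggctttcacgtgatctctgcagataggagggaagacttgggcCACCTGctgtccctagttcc
Ccr9: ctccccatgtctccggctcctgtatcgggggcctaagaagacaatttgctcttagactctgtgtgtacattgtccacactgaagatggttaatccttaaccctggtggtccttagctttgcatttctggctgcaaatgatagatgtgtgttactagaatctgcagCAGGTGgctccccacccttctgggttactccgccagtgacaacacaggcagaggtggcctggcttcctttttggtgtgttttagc
In Bst2, an interferon-induced gene (chr8:71537473-71537722, minus strand) the capitals mark GAAA followed, after any 2 bases, by a second GAAA. This is the core of the interferon-stimulated response element, found there as 2 overlapping matches. It occurred in 1 of the 7 member promoters and in 3.44% of all promoters, and the same stretch also holds a CAGGTG, left in lower case.
Bst2: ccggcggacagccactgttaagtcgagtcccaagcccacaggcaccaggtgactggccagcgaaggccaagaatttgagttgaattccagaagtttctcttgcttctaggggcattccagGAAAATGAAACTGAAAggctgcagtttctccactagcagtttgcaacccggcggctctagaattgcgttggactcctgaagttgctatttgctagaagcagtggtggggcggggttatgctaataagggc
The 8-base site GAGGAAGT, bound by the Ets factors PU.1 and Spi-B, was in 0 of the 7 and in 3.20% of all promoters. A match describes letters in this window and is not evidence of binding.

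**Figure D1:**
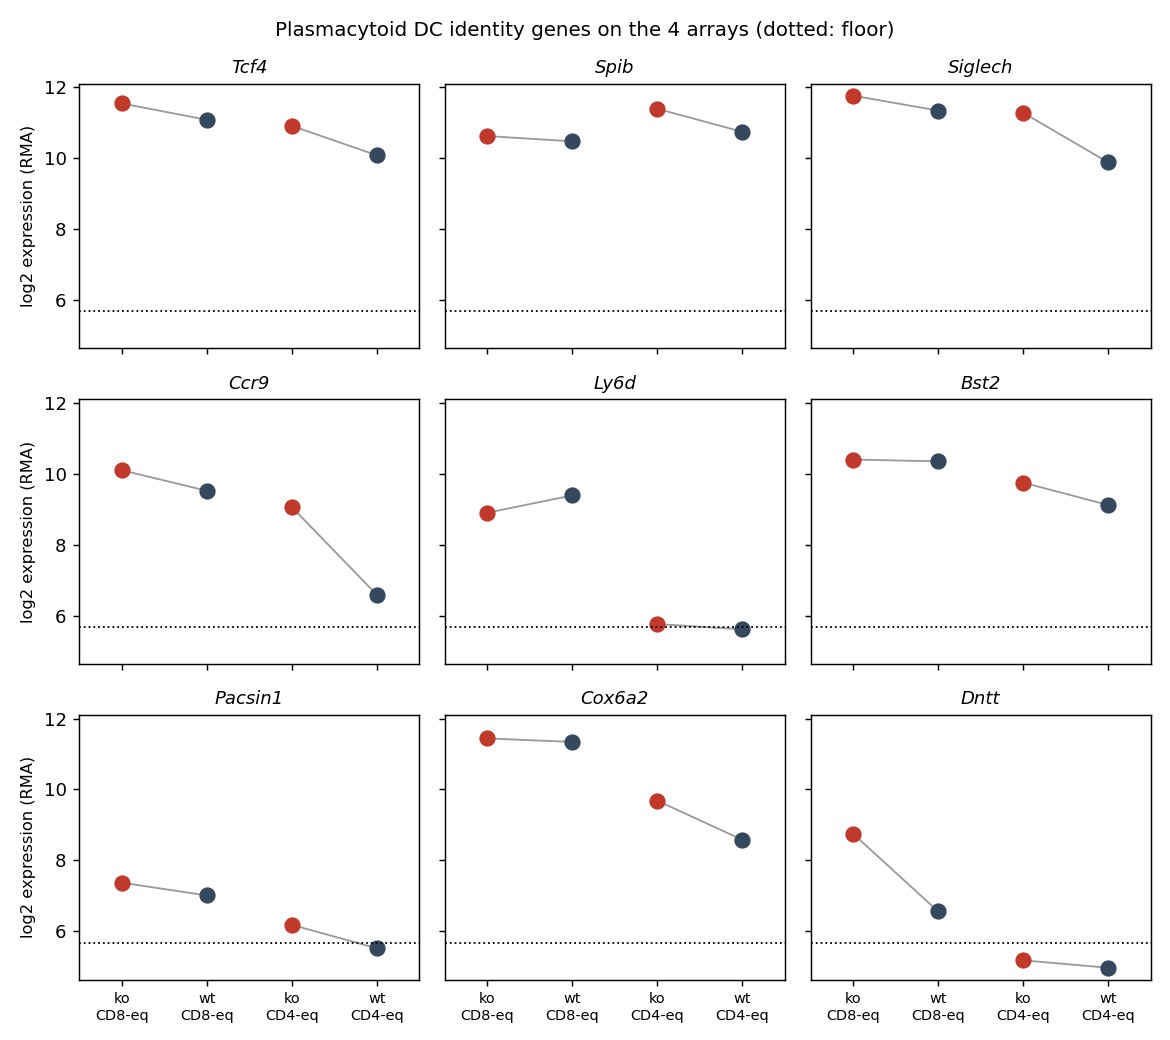
RMA log2 expression (y axis) of each measured plasmacytoid DC identity gene on the 4 arrays (x axis), ko in red and wt in dark blue, with grey lines joining the genotypes of a subset and a dotted line at the floor of 5.68. Each point is 1 array; in both genotypes 8 of 9 genes stand higher in the CD8-equivalent subset, and Spib stands lower.

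Between the subsets, most plasmacytoid DC genes were higher in CD8-equivalent DCs, the gate named for conventional DCs of the CD8 lineage. Over both genotypes, 7 of the 9 genes passed limma's test as higher in CD8-equivalent DCs and 0 as lower, against 7.98% and 6.35% of the 10239 genes tested. In ko 8 of 9 members lay above 0, where 62.8% of genes compared did, and 5 were at least 2-fold higher and 0 lower, where 3.39% and 3.9% were. With cyclic loess scaling the share of higher genes among all those past 2-fold in ko was 34.6%, against 46.5% as deposited. In wt 8 of 9 members lay above 0, where 54.8% of genes did, and all 8 were at least 2-fold higher, where 2.10% of genes were higher and 3.14% lower. The median difference over the 9 was 1.04 in ko and 1.49 in wt, beside 0.11 and 0.04 for all genes compared. This test fits genotype and subset together over the arrays, so the genotypes stand in for replicates here.

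Tcf4, the regulator on which plasmacytoid DC fate depends, read 11.54 in ko and 11.08 in wt CD8-equivalent DCs, and 10.91 in ko and 10.08 in wt CD4-equivalent DCs. It was far above the floor on every array, and the wt CD4-equivalent array was the lowest of the 4. It was higher in CD8-equivalent DCs by 0.64 in ko and 1.00 in wt (mean 0.82 ± 0.14 SE, limma adjusted p = 0.027). Spib, which encodes the Ets factor Spi-B that promotes plasmacytoid DC and B cell gene programs, read 10.62 in ko and 10.47 in wt CD8-equivalent DCs, and 11.39 in ko and 10.74 in wt CD4-equivalent DCs. It was the one member with the opposite order of subsets, with CD8- minus CD4-equivalent differences of -0.77 in ko and -0.26 in wt, and did not pass the test (mean -0.51 ± 0.16 SE, limma adjusted p = 0.097).

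Among the surface proteins, Siglech encodes Siglec-H, the member of the sialic acid-binding lectin family that is used to define mouse plasmacytoid DCs. It read 11.76 in ko and 11.34 in wt CD8-equivalent DCs, and 11.28 in ko and 9.88 in wt CD4-equivalent DCs. The wt CD4-equivalent array stood apart below the other 3, which lay between 11.28 and 11.76. Its subset differences were 0.49 in ko and 1.47 in wt, and their mean did not pass the test (0.98 ± 0.25 SE, limma adjusted p = 0.062).

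Ccr9, the receptor for the chemokine CCL25 through which plasmacytoid DCs home to the gut and thymus, showed the same order with a wider range. It read 10.10 in ko and 9.52 in wt CD8-equivalent DCs, and 9.06 in ko and 6.59 in wt CD4-equivalent DCs. The subset difference was 1.04 in ko and 2.93 in wt, or 2.06-fold and 7.62-fold (mean 1.99 ± 0.44 SE, limma adjusted p = 0.046). Ly6d, a GPI-linked protein that marks lymphoid progenitors committed to the B cell and plasmacytoid DC path, read 8.90 in ko and 9.39 in wt CD8-equivalent DCs, and 5.76 in ko and 5.61 in wt CD4-equivalent DCs. It thus separated the subsets fully, with CD4-equivalent values at the floor.

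For Ly6d the CD8- minus CD4-equivalent difference was 3.14 in ko and 3.78 in wt (mean 3.46 ± 0.18 SE, limma adjusted p = 0.0029), and in wt it was taken against a value just below the floor. Bst2, which encodes tetherin, the antigen of the plasmacytoid DC antibody PDCA-1 and an interferon-induced inhibitor of virus release, read 10.40 in ko and 10.35 in wt CD8-equivalent DCs, and 9.75 in ko and 9.12 in wt CD4-equivalent DCs. Again the wt CD4-equivalent array was lowest, and the CD8-equivalent arrays differed by 0.05. Bst2 differed between the subsets by 0.65 in ko and 1.23 in wt (mean 0.94 ± 0.17 SE, limma adjusted p = 0.032).

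Pacsin1, an endocytic adaptor of neurons that in blood is largely restricted to plasmacytoid DCs and supports their interferon production, read 7.37 in ko and 7.01 in wt CD8-equivalent DCs, and 6.18 in ko and 5.52 in wt CD4-equivalent DCs. Only its wt CD4-equivalent value lay below the floor. Cox6a2, the heart and muscle isoform of a cytochrome c oxidase subunit, read 11.44 in ko and 11.34 in wt CD8-equivalent DCs, and 9.68 in ko and 8.58 in wt CD4-equivalent DCs. Both genes separated the subsets in both genotypes. The mean subset difference was 1.34 ± 0.13 (SE) for Pacsin1 and 2.26 ± 0.25 (SE) for Cox6a2 (limma, adjusted p = 0.0097 and 0.012). The paralog Cox6a1, which encodes the isoform of most tissues, gave 10.96 in ko and 11.10 in wt CD8-equivalent DCs, and 11.04 in ko and 10.92 in wt CD4-equivalent DCs (limma, adjusted p = 0.81 for subset).

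Dntt, which encodes the terminal deoxynucleotidyl transferase that adds untemplated bases to rearranging antigen receptor genes, read 8.75 in ko and 6.56 in wt CD8-equivalent DCs, and 5.18 in ko and 4.97 in wt CD4-equivalent DCs. Both CD4-equivalent values lay below the floor, and the ko CD8-equivalent array stood far above the other 3. Against those low values the subset difference was 3.57 in ko and 1.59 in wt (mean 2.58 ± 0.46 SE, limma adjusted p = 0.029).

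Of the 7 subset calls, 4 were lost without the floor. There limma's adjusted p was 0.12 for Ccr9, 0.07 for Bst2, 0.053 for Tcf4 and 0.082 for Dntt, which left 3 members called, Ly6d, Pacsin1 and Cox6a2.

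**Figure D2:**
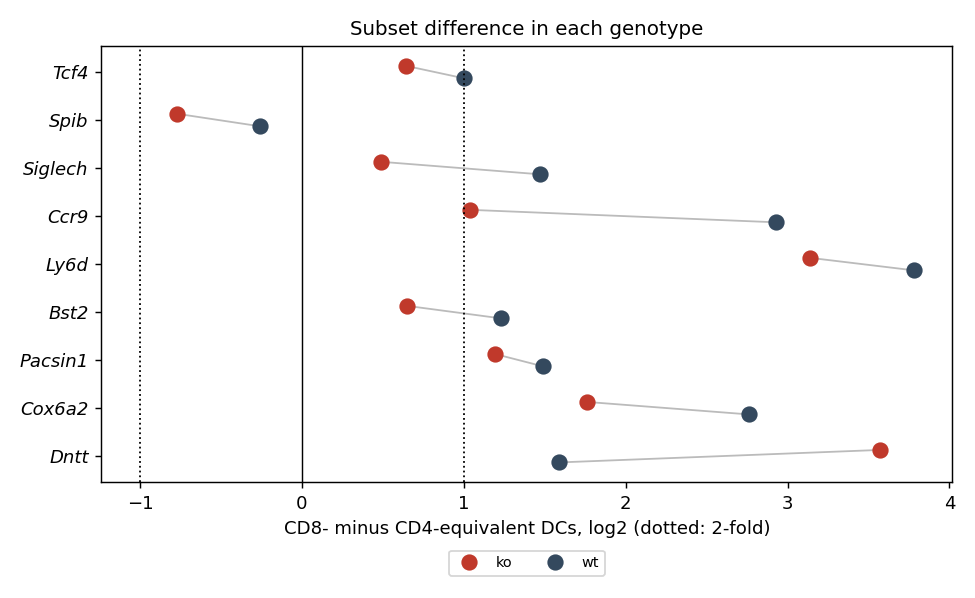
CD8- minus CD4-equivalent difference in log2 units (x axis) for each gene (y axis), ko in red and wt in dark blue, each point a difference of 2 arrays, with dotted lines at 2-fold. The ko point lies left of the wt point for every gene but Dntt, with 3.57 in ko and 1.59 in wt.

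The question the study poses is what loss of miR-142 does in each subset. In CD4-equivalent DCs all 9 members had a higher value in ko than in wt, by 0.14 to 2.47 log2 units with a median of 0.65, beside a median of -0.08 for all genes compared, of which 36.2% lay above 0. Dntt was below the floor on both of these arrays, and of the other 8 genes 3 had at least 2-fold more in ko and 0 at least 2-fold less, where 1.39% of 9978 genes were higher and 0.952% lower. In CD8-equivalent DCs 8 of 9 were higher in ko, with a median of 0.36 beside 0.004 for all genes compared, of which 50.7% lay above 0. Only Dntt reached 2-fold, where 1.14% of 9972 genes were past 2-fold upward and 1.0% downward.

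Ccr9 had the widest genotype difference of the members in CD4-equivalent DCs, 2.47 or 5.52-fold, number 12 from the highest of the 9978 genes compared. Siglech was higher in ko by 1.40 (2.63-fold) and Cox6a2 by 1.10 (2.14-fold). These 3 had CD8-equivalent differences of 0.58, 0.42 and 0.10. Tcf4 was higher in ko by 0.47 in CD8-equivalent and 0.83 in CD4-equivalent DCs, and Pacsin1 by 0.36 and 0.65. For these genes ko exceeded wt in both subsets, with the larger value in CD4-equivalent DCs.

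Spib was higher in ko by 0.15 in CD8-equivalent and 0.65 in CD4-equivalent DCs, and Bst2 by 0.05 and 0.63. Ly6d gave -0.49 and 0.14, the only opposite signs. Dntt gave 2.20 in CD8-equivalent DCs, 4.59-fold and number 8 of 9972 genes, and 0.21 in CD4-equivalent DCs, where its values are not informative.

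No member passed the test for a genotype difference common to both subsets. With limma's adjustment over all genes, 0 of 9 were called, where 0.107% of 10239 genes were called higher in ko and 0.0586% lower. At an unadjusted p under 0.05 there were 5 of 9 (Tcf4, Siglech, Ccr9, Pacsin1 and Dntt), against 15.6% of all genes tested. Tcf4 came closest, with a mean difference of 0.65 ± 0.14 (SE, adjusted p = 0.14), and it was called when limma's prior was trended and robust (adjusted p = 0.034). For Siglech the mean was 0.91 ± 0.25 (SE, limma adjusted p = 0.20) and for Ccr9 1.52 ± 0.44 (SE, limma adjusted p = 0.22). The other 6 members had adjusted p-values of 0.19 to 0.71.

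**Figure D3:**
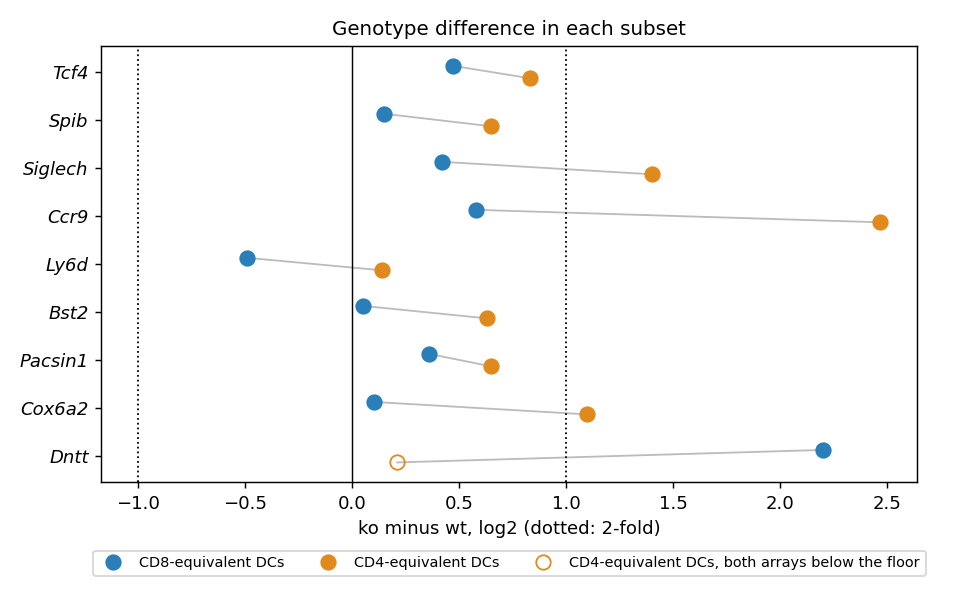
Difference of ko minus wt in log2 units (x axis) for each gene (y axis), CD8-equivalent DCs in blue and CD4-equivalent DCs in orange, each point a difference of 2 arrays, with dotted lines at 2-fold. An open circle marks Dntt in CD4-equivalent DCs, where both arrays were below the floor; only Ccr9, Siglech and Cox6a2 pass 2-fold in CD4-equivalent DCs, and only Dntt does in CD8-equivalent DCs.

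The difference between these genotype differences, CD8- minus CD4-equivalent, was below 0 for 8 of 9 members, with a median of -0.58 and a lowest value of -1.89 (Ccr9). Over all 10239 genes tested, 39.4% lay below 0 and the median was 0.07. This quantity takes the last degree of freedom of the design, which the additive fit uses as error, so it was not tested. It also states how the distance between the subsets differed: of the 8 members at least 2-fold higher in wt CD8-equivalent than in wt CD4-equivalent DCs, 7 had a smaller subset difference in ko. Of all 210 tested genes chosen in the same way, 72.9% did. The comparison of genotypes in CD4-equivalent DCs and that of subsets in wt both use the wt CD4-equivalent array, which held the lowest value of 8 of the 9 members. A low value there raises both.

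Other genes of plasmacytoid DCs were examined from lists grouped by role, which were chosen with earlier results of these data known. The list of surface and other genes had 19 of 23 members measured. Over both genotypes, 8 of its 18 tested genes passed as higher in CD8-equivalent DCs and 2 as lower, where 7.98% and 6.35% of all genes did. For genotype 0 passed in either direction, where 0.107% of all genes were called higher in ko and 0.0586% lower. In CD4-equivalent DCs 7 of 16 genes had at least 2-fold more in ko and 1 had less, beside 1.39% and 0.952% of all genes, though 2 of the 16 reached the floor in ko alone. Over all 19 measured genes, 14 had a higher value in ko CD4-equivalent DCs, with a median difference of 0.41. Of all genes compared there, 36.2% lay above 0 and the median was -0.08. In CD8-equivalent DCs 1 of 17 compared was at least 2-fold higher and 0 lower, beside 1.14% and 1.0% of all genes. The median over all 19 was 0.22, beside 0.004 for all genes compared.

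Atp1b1, a subunit of the sodium-potassium pump, had the largest genotype difference of this list and the pattern of Ccr9. It read 11.24 in ko and 10.90 in wt CD8-equivalent DCs, and 9.94 in ko and 7.67 in wt CD4-equivalent DCs. Cd28, the costimulatory receptor known from T cells and also present on plasmacytoid DCs, read 10.54 in ko and 9.24 in wt CD8-equivalent DCs, and 9.62 in ko and 7.61 in wt CD4-equivalent DCs. It was the one gene of the list at least 2-fold higher in ko in both subsets, by 1.30 and 2.01 (mean 1.66 ± 0.20 SE, limma adjusted p = 0.061). The magnesium transporter gene Slc41a2 was higher in ko by 0.85 in CD8-equivalent and 2.11 in CD4-equivalent DCs, and Upb1, which encodes an enzyme of pyrimidine breakdown, by 0.23 and 1.92. Klra17, which encodes Ly49Q, an inhibitory receptor of plasmacytoid and myeloid cells, was lower in CD8-equivalent DCs, with differences of -2.77 in ko and -2.28 in wt (limma adjusted p = 0.0039). Cd209d, a C-type lectin gene, was the one at least 2-fold lower in ko CD4-equivalent DCs (-1.08).

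In the transcriptional circuit around Tcf4, 1 of 10 genes compared reached 2-fold between ko and wt CD4-equivalent DCs, Irf8, and 0 of 10 did in CD8-equivalent DCs. Of 10 tested genes in a list of 13, 2 passed as higher in CD8-equivalent DCs, Id2 and Tcf3, and 2 as lower, Irf7 and Zeb2. Of all genes tested, 7.98% passed as higher and 6.35% as lower. For genotype 0 passed, where 0.107% of all genes were called higher in ko and 0.0586% lower. Id2, the inhibitor of E proteins, read 12.87 in ko and 13.09 in wt CD8-equivalent DCs, and 12.30 in ko and 12.25 in wt CD4-equivalent DCs. All 4 values lay far above the floor, and its genotype differences were -0.22 and 0.04. Irf8, a factor shared by plasmacytoid DCs and CD8-lineage conventional DCs, read 12.98 in ko and 12.87 in wt CD8-equivalent DCs, and 12.42 in ko and 11.13 in wt CD4-equivalent DCs, and its wt CD4-equivalent value stood apart as that of Siglech did. Bcl11a, which acts upstream of Tcf4, differed by 0.20 and 0.16 between ko and wt, and Zeb2, a repressor required for plasmacytoid DCs, by 0.31 and 0.02.

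Nucleic acid sensing was represented by a further list. Of its 9 measured genes among 13 listed, 1 passed as higher in CD8-equivalent DCs, the adaptor gene Blnk. Passing as lower were 2, Tlr7 and Tlr9, which encode the endosomal receptors for single-stranded RNA and for DNA. Of all genes tested, 7.98% passed as higher and 6.35% as lower. In CD4-equivalent DCs 1 of 9 was at least 2-fold higher in ko, again Blnk, where 1.39% of all genes compared were. The median was -0.03, beside -0.08 for all genes compared. Tlr7 differed between ko and wt by 0.27 in CD8-equivalent and 0.11 in CD4-equivalent DCs, and Tlr9 by -0.21 and 0.10. Irf7, the factor that drives interferon genes in plasmacytoid DCs, was lower in CD8-equivalent DCs, with differences of -1.16 in ko and -0.88 in wt (limma adjusted p = 0.02).

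Bst2, higher in CD8-equivalent DCs, is also interferon-induced. Of 17 other interferon-stimulated genes measured, 13 passed as lower in CD8-equivalent DCs and 0 as higher, where 6.35% and 7.98% of all genes did. In CD4-equivalent DCs 16 of the 17 were lower in ko, 5 of them by at least 2-fold, with a median of -0.76, in a comparison where 36.2% of all genes lay above 0 and 0.952% were at least 2-fold lower. Bst2 differed by 0.63 there. Paralogs and partners of the members, such as other Siglecs, Pacsin2, Spi1, Runx1 and Runx3, included 0 genes at 2-fold in either genotype comparison. Compared were 15 in CD8-equivalent and 17 in CD4-equivalent DCs. Of all genes, 1.14% were at least 2-fold higher in ko CD8-equivalent DCs and 1.0% lower. In CD4-equivalent DCs these shares were 1.39% and 0.952%, so the counts of 0 lie near them. Among the paralogs of the unmeasured Runx2, named after their values were seen, Runx1 read between 11.19 and 11.26 on all 4 arrays and Runx3 between 10.00 and 10.23. Siglece and Siglecf, which encode Siglecs of myeloid cells, were the 2 of 17 that passed as lower in CD8-equivalent DCs, where 6.35% of all genes did.

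Lymphoid progenitor genes were set beside Dntt. Of all 12 measured, 11 had a higher value in ko CD8-equivalent DCs, with a median difference of 0.57, where 50.7% of all genes compared lay above 0. Of these 12, 3 lay below the floor throughout and 3, Rag1, Lax1 and Ebf1, reached it on the ko CD8-equivalent array alone. The genotype test called 0 of the 9 tested, where 0.107% of all genes were called higher in ko and 0.0586% lower. Rag1, a subunit of the recombinase that cuts antigen receptor genes, read 6.52 in ko and 5.34 in wt CD8-equivalent DCs, and 5.03 in ko and 5.00 in wt CD4-equivalent DCs. Like Dntt it stood out on the ko CD8-equivalent array, and that was the only one of its values above the floor.

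The adaptor gene Lax1 differed by 1.00 between ko and wt CD8-equivalent DCs, the transcription factor gene Sox4 by 0.97 and the B lineage factor gene Ebf1 by 0.83. In CD4-equivalent DCs these 3 differed by -0.04, -0.11 and 0.03, though Lax1 and Ebf1 were below the floor on both arrays there. Il7r, the receptor chain for interleukin 7, read 10.64 in ko and 10.30 in wt CD8-equivalent DCs, and 9.36 in ko and 9.24 in wt CD4-equivalent DCs. It passed as higher in CD8-equivalent DCs (limma adjusted p = 0.01), as did Igll1, Blnk and Sox4, out of 9 tested, where 7.98% of all genes did. Vpreb1 and Lef1 were below the floor on all 4 arrays.

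**Figure D4:**
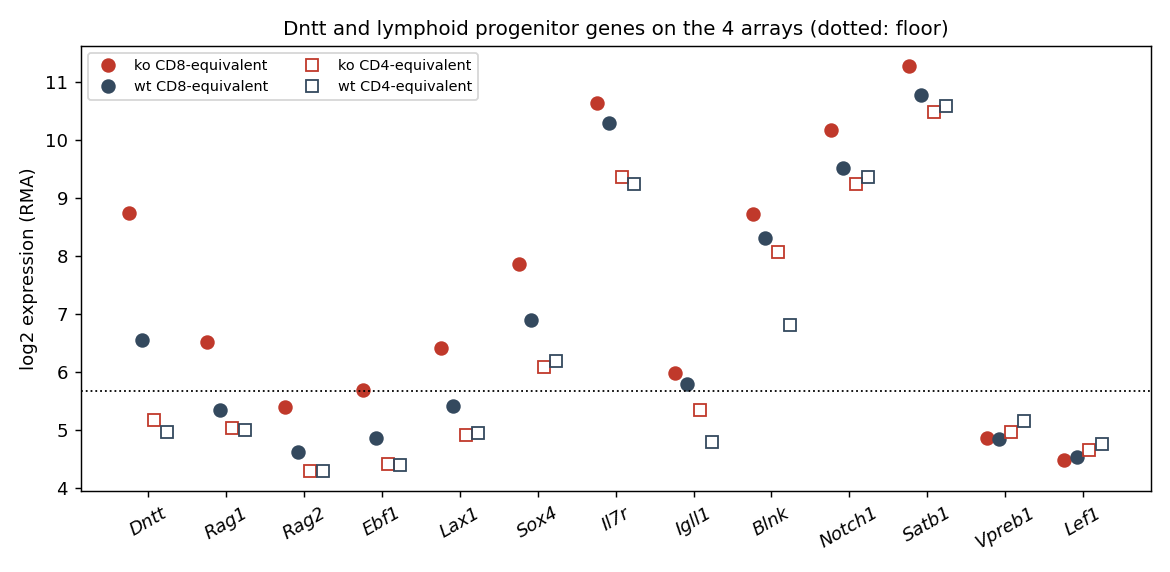
RMA log2 expression (y axis) of Dntt and 12 lymphoid progenitor genes (x axis), filled circles for CD8-equivalent and open squares for CD4-equivalent DCs, ko in red and wt in dark blue, with a dotted line at the floor of 5.68. Each point is 1 array. For every gene shown but Vpreb1 and Lef1 the ko CD8-equivalent array is the highest of the 4, though Rag2 lies below the floor throughout.

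Genes most like Siglech were sought over the 4 arrays, by the root mean square difference of log2 values centred on each gene's mean, among 10238 other genes. The closest were Mospd1 (0.064), Blnk (0.065), Prtn3 (0.072), P2ry12 (0.12) and Erbb3 (0.14). Of the members, Tcf4 ranked number 15, Bst2 number 56 and Pacsin1 number 73, while Ccr9 and Cox6a2, whose order is alike but whose range is wider, ranked 2311 and 3055. Spib ranked 7503, Dntt 9736 and Ly6d 10035, far from Siglech. With 4 arrays this likeness is a description only.

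Markers of some other cells also differed between the arrays, not always in the direction of the members, and their part in these results was not tested. Markers of CD8-equivalent DCs averaged 9.93 in ko and 10.35 in wt CD8-equivalent DCs, and 9.24 in ko and 8.45 in wt CD4-equivalent DCs. In CD4-equivalent DCs 5 of 12 had at least 2-fold more in ko and 0 less, led by the dead-cell receptor Clec9a (3.07) and the adhesion molecule Cadm1 (2.67). Of all genes compared there, 1.39% had at least 2-fold more and 0.952% less. Over all 14 measured, 10 had a higher value in ko CD4-equivalent DCs and 4 a lower one, where 36.2% of all genes compared lay above 0. Cadm1 gave a CD8- minus CD4-equivalent difference of -1.71 in ko and 0.14 in wt. In CD8-equivalent DCs 3 of the 14 measured had a higher value in ko, with a median difference of -0.35. For the members these were 8 of 9 and 0.36, and 50.7% of all genes compared lay above 0. The genotype difference was smaller in CD8- than in CD4-equivalent DCs for 13 of these 14 markers, against 8 of 9 plasmacytoid DC genes. Neutrophil markers averaged 4.83 in ko and 4.94 in wt CD8-equivalent DCs, where 0 of 11 reached the floor, and 7.71 in ko and 5.87 in wt CD4-equivalent DCs, where 10 and 4 did. In CD4-equivalent DCs 9 of the 11 had a higher value in ko, where 36.2% of all genes compared did. The other 2, Mmp8 (-0.69) and Csf3r (-0.74), were lower in ko.

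Stem and myeloid progenitor markers averaged 8.74 in ko and 7.72 in wt CD8-equivalent DCs, and 8.12 in ko and 7.06 in wt CD4-equivalent DCs. Of these 10 genes, 8 had a higher value in ko in CD8-equivalent and 9 in CD4-equivalent DCs, and 1 rose in limma's genotype test, Hoxa9 (mean 3.24 ± 0.15 SE, adjusted p = 0.0095). Of all genes compared, 50.7% and 36.2% lay above 0 in these subsets, and 0.107% of all genes tested were called higher in ko. Monocyte and macrophage markers averaged 6.66 in ko and 7.74 in wt CD8-equivalent DCs, and 9.06 in ko and 8.90 in wt CD4-equivalent DCs. B cell markers averaged 5.68 to 5.86 on all 4 arrays, and Cd79a, Ms4a1 and Pax5 were below the floor throughout, while Cd79b read 9.60 to 9.90 and Cd22 8.51 to 9.67. T and NK cell markers averaged 4.64 to 4.99, and 8 of the 9, Cd3e and Ncr1 among them, were below the floor on all arrays. The other, the granule gene Nkg7, read 8.09 in ko and 7.28 in wt CD8-equivalent DCs, and 5.12 in ko and 4.95 in wt CD4-equivalent DCs (limma adjusted p = 0.0047 for subset).

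Sort markers were read beside these. Ptprc, the gene of CD45, read 12.01 in ko and 12.21 in wt CD8-equivalent DCs, and 12.39 in ko and 12.65 in wt CD4-equivalent DCs. Its probe set does not separate the B220 isoform, so these values do not check the B220 gate. Sirpa, the gene of CD172a, and Itgam, the gene of CD11b, were lower in CD8-equivalent DCs, as the gates define, with mean differences of -2.33 ± 0.12 and -1.94 ± 0.12 (SE, limma adjusted p = 0.0029 and 0.0037). Cd24a was higher there by 0.73 in ko and 1.78 in wt, and Itgax, the gene of CD11c, by 0.18 and 0.52.

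**Figure D5:**
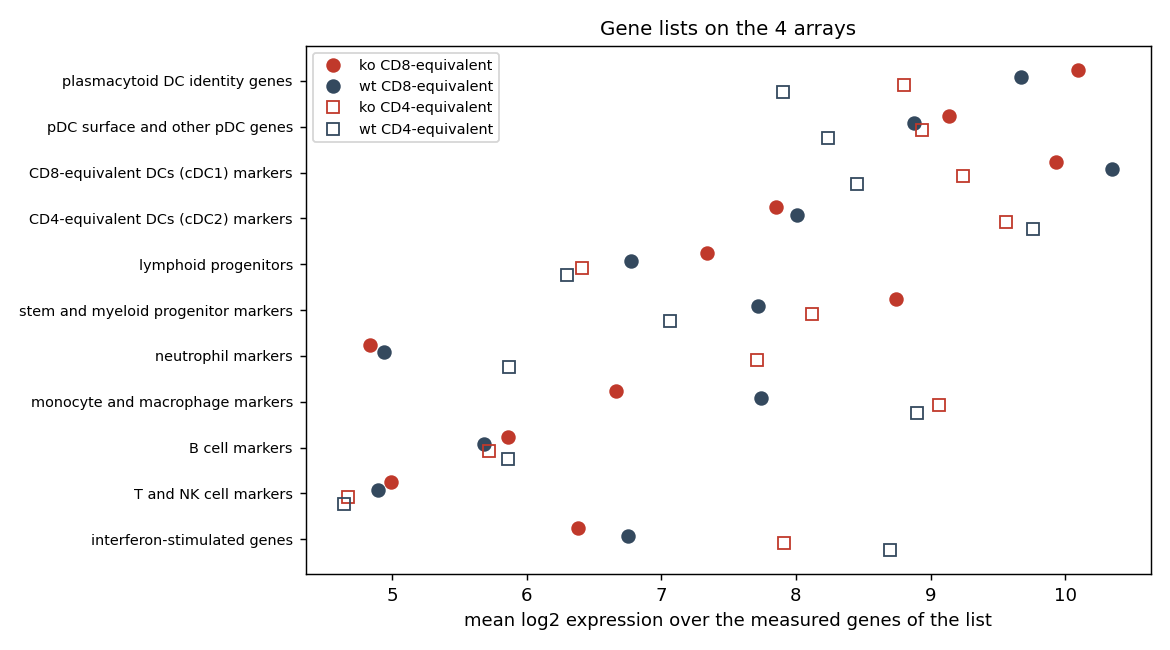
Mean log2 expression over the measured genes of each list (x axis) on the 4 arrays, filled circles for CD8-equivalent and open squares for CD4-equivalent DCs, ko in red and wt in dark blue. Plasmacytoid DC identity genes average 10.10 in ko and 9.67 in wt CD8-equivalent DCs and 8.80 in ko and 7.90 in wt CD4-equivalent DCs. The mean of neutrophil markers stands out on the ko CD4-equivalent array, though Mmp8 and Csf3r are lower in ko there.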

How the data were processed

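Biotin-labelled RNA of the 4 sorted populations was hybridised to Affymetrix arrays, per the labels' protocols. The deposited values are log2 expression per probe set. RMA and Partek are named in the submitters' processing notes, without versions. The log base was inferred from values of 3.52 to 14.33. RMA compresses differences near background, so a difference against a value under the floor may understate the ratio, which was not tested.

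Of 35399 probe sets, 21789 carried 1 gene symbol, 1621 several and 11989 none. The highest-mean probe set stood for each of 19938 genes. Array pairs were compared where the higher value reached the floor of 5.68. limma 3.58.1 in R 4.3.3 fitted an additive model of genotype and subset to 10239 genes, two-sided, with Benjamini-Hochberg adjustment at 0.05. It has 1 residual degree of freedom and 3.98 prior ones. That residual is the difference between the genotype differences of the subsets, so a genotype effect that differs between subsets counts as error. Its p-values reflect only how these arrays vary, technical variation included, and do not measure variation between mice or cultures. The members and lists were chosen with earlier results of these data known. Genes besides the members were mostly chosen among those that limma called, that reached 2-fold, that were listed by name or that were the 5 most like Siglech. Not all called genes are named, so an unnamed gene may still have been called. Alternatives were another prior, no floor, a floor at the 60th percentile (7.22), cyclic loess, the mean of all probe sets and a 1.5-fold threshold.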

Additional observations from a re-analysis of the deposited data

Results flagged for a closer look

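Ly6d had genotype differences of opposite sign in the subsets, ko minus wt, of -0.49 in CD8-equivalent DCs and 0.14 in CD4-equivalent DCs. Each is a difference of 1 array from 1 array, its CD4-equivalent values lay at the floor, and the difference between the subsets was not tested.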

How the results depend on the processing

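The 9 members kept the sign of each limma mean difference under every alternative, and of each pairwise difference under cyclic loess and the mean of all probe sets. For genotype, limma called 17 genes, but 307 with the trended and robust prior, 126 with the floor at the 60th percentile and 3 without a floor. Members called were 0, but 1 with that prior (Tcf4). For subset, 1467 genes were called, but 946 without a floor, where 3 members were called, against 7. With cyclic loess 5 members were called, as Ccr9 (adjusted p = 0.071) and Bst2 (0.052) were not. With the trended and robust prior, 6 were called: Ccr9 (0.21) and Dntt (0.11) were lost and Spib (-0.51, 0.036) was gained as lower in CD8-equivalent DCs. At 1.5-fold, 7 members were higher in ko CD4-equivalent DCs, against 3 at 2-fold. The share of all genes past 1.5-fold was not computed, so the 7 cannot be set against it. Without a floor 19938 genes entered the adjustment, and with the higher one 8331; the other causes were not tested. Cyclic loess moved the median of all genes, CD8- minus CD4-equivalent in ko, to 0.01 from 0.11. No paired analysis was possible because each group holds 1 array, and no array could be left out of a test for the same reason. No detection calls were used, so low values such as those of Dntt in CD4-equivalent DCs limit what can be compared.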
